A study of Mus musculus with 721 samples.

Results

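Dppa2, Dppa3, Dppa4 and Dppa5a are the 4 genes of the developmental pluripotency associated (Dppa) series that this section follows from the inner cell mass to gastrulation. They were chosen by symbol, as 4 of the 24483 rows of the count table, with earlier results of these data known. The study sequenced the polyadenylated RNA of single cells, picked by hand from wild-type C57Bl/6Babr mouse embryos on 4 embryonic days from E3.5 to E6.5, with the Smart-seq2 chemistry. At E3.5 and E4.5 the trophectoderm, the outer layer that forms placenta, had been lysed with antiserum and removed, and at E5.5 and E6.5 extraembryonic ectoderm was cut away. The 721 cells kept by the study were 99 cells from 10 embryos at E3.5, 76 and 29 cells of 2 lineages from 5 embryos at E4.5, 267 cells from 9 embryos at E5.5 and 250 cells from 13 embryos at E6.5. All embryos shared the strain and genotype and none was treated, and embryos 12 and 13 of the E6.5 group are titled E6.75. By the submitters' labels 17.8% of the wells held 2 cells. Such wells were more frequent at E4.5 than at E3.5 and made up most wells of E5.5 embryo 9. Each is counted as a cell throughout, and fits and shares with only single wells were run as alternatives. An embryo is the replicate throughout.

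The 4 genes share a name because they were found together by their expression in pluripotent cells, and their proteins do not form 1 family. Dppa2 and Dppa4 encode SAP-domain proteins that bind DNA as a pair and keep the chromatin of early embryonic and germline genes open to activation. Dppa3, also called Stella or PGC7, is stored in the egg, protects the maternal genome from loss of DNA methylation after fertilisation, limits maintenance methylation by Uhrf1, and marks germ cell precursors. Dppa5a, also called Esg1, encodes an RNA-binding protein with a KH domain that is abundant in embryonic stem cells.

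Dppa2 (ENSMUSG00000072419, GRCm38 chromosome 16, 48303908 to 48319723) and Dppa4 (ENSMUSG00000058550, chromosome 16, 48283733 to 48294237) lie next to each other on the plus strand with 9671 bases between them. Dppa3 (ENSMUSG00000046323) lies on the plus strand of chromosome 6 at 122626410 to 122630272, and Dppa5a (ENSMUSG00000060461) on the minus strand of chromosome 9 at 78367052 to 78368177. The annotated exons of each gene together cover 2447, 892, 1662 and 619 bases for Dppa2, Dppa3, Dppa4 and Dppa5a. Counts over a gene are compared between genes only after division by these lengths. Part of the exonic sequence is not unique, which limits how surely a read can be given to 1 locus: of the stretches of 100 bases in the transcripts, 23.9% of Dppa2's recur in transcripts of Gm8023, Gm9298 or Gm9788, 13.98% of Dppa4's in Gm14058 or Gm5501, 3.08% of Dppa5a's in Dppa5b, Dppa5c, Gm15310 or Gm6798, and 0% of Dppa3's in any other gene. The count table holds 2 further Dppa rows, which are no members: Dppa1 had a count in 2 cells and Dppa5b in 3 cells. Summed over all cells, Dppa5a had 1714143 counts, Dppa3 299378, Dppa2 77469 and Dppa4 74485. Dppa5a was counted in all 721 cells.

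Cells were placed in lineages by clustering in which the 4 genes took no part. The E3.5 cells formed the inner cell mass (ICM) class. The E4.5 cells divided into 29 epiblast-like and 76 primitive endoderm-like (PrE-like) cells. Of the E5.5 cells 260 were epiblast-like, and the other 7, called endoderm-like, entered no comparison. The 260 came from 2 clusters, the smaller with 81 cells, 38 of them from embryo 7. Its leading genes included the trophectoderm markers Wnt7b and Elf5 and no epiblast marker, although Wnt7b was counted in 3 and Elf5 in 2 of its cells. The 9 trophectoderm markers summed to a median of 156.3 and 154.4 CPM per cell in the larger and the smaller cluster, and the 15 epiblast markers to 6608 and 6146, so both were kept in the class and the E5.5 comparisons were also run with each alone. Of the E6.5 cells 74% were epiblast-like, 42 were endoderm-like, and 23 from 1 embryo were streak-like. The summed level of 18 endoderm markers was 1563 to 5210 counts-per-million (CPM, scaled by edgeR's TMM factors) in the E4.5 epiblast-like sums against 11748 to 20885 in the PrE-like sums. Of the 2 E6.5 endoderm clusters, 1 was led by genes of the anterior visceral endoderm such as Hhex, Lefty1 and Dkk1 and the other by haemoglobin genes such as Hba-a1. Total counts per cell ran from 66896 to 3792936 with a median of 692863. Counts were summed per embryo and class where an embryo gave at least 3 cells of the class, which made 50 sums of 1476466 to 49484352 counts. The 9 trophectoderm markers summed to 161.8 to 1269.97 CPM in the ICM sums, 19.9 to 64.8 in the E4.5 epiblast-like sums and 66.9 to 140.7 in the PrE-like sums, with Cdx2, Tfap2c and Hand1 at 0 in both E4.5 classes. Later they summed to 133.3 to 329 CPM in the E5.5 epiblast-like, 180.2 to 648 in the E6.5 epiblast-like and 1080 to 2215 in the E6.5 endoderm-like sums. From the E5.5 to the E6.5 epiblast-like sums the endoderm markers went from 511 to 837 to 622 to 6407 CPM and the 11 primitive streak markers from 15.7 to 56.8 to 69.3 to 699.6. The part of these marker levels in the differences between classes was not tested.

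Some libraries stood apart before any comparison was made. The E6.5 epiblast-like sum of embryo 9, which held 7 cells, gave 2743 CPM of Dppa5a against 146.9 to 436 in the other 12 embryos, and 267 CPM of Dppa4 against 0 to 34.7. One well of 3451994 counts and 4039 detected genes made 47.1% of that sum, with 3336 CPM of Dppa5a, and gave most of its Dppa5a counts. The other cells of embryo 9 were at 330 to 1025 CPM, where cells of the other embryos reached 849. All 7 cells of embryo 9 lay above the median of 256 CPM over the cells of the other embryos. A TMM factor of 0.705 also raised the CPM of the sum, while values of single cells are not scaled. Levels, fold changes and shares of E6.5 epiblast-like cells that change in size or call without this embryo are given both ways. The E6.5 endoderm-like sum of embryo 8 was high in Dppa4, at 55.6 CPM, of whose 258 counts 256 came from 1 cell. At E3.5 the embryos of plate P8 gave 3 to 4 cells each and those of plate P9 gave 11 to 28, and the 9 cells of the plate set P11.P6.P10, which carry no embryo number, were treated as 1 embryo. Stage and plate cannot be told apart in most comparisons, since stages were sequenced on different plates.

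In the ICM the 4 genes held places near the top of the transcriptome. By mean CPM per kilobase of exon (CPM per kb) Dppa5a ranked 1st and Dppa3 2nd among 21726 genes with a length, at 7174 and 5362, while Dppa2 ranked 152nd at 361 and Dppa4 219th at 265. At E4.5 Dppa5a ranked 1st in the epiblast-like and 2nd in the PrE-like class, and at E5.5 3rd, before it dropped to 74th, 255th and 1576th in the E6.5 epiblast-like, endoderm-like and streak-like classes. The 74th rank rests in part on E6.5 embryo 9, without which the mean was 449.7 in place of 756 CPM per kb. Dppa3 had already left the leading genes by E4.5, at rank 251 in the epiblast-like and 986 in the PrE-like class. From E4.5 on Dppa4 stood above Dppa2 per kilobase in the epiblast-like classes, at 123.8 against 47.8 CPM per kb at E4.5 and 96.01 against 35.3 at E5.5, the opposite of their order in the ICM.

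**Figure D1:**
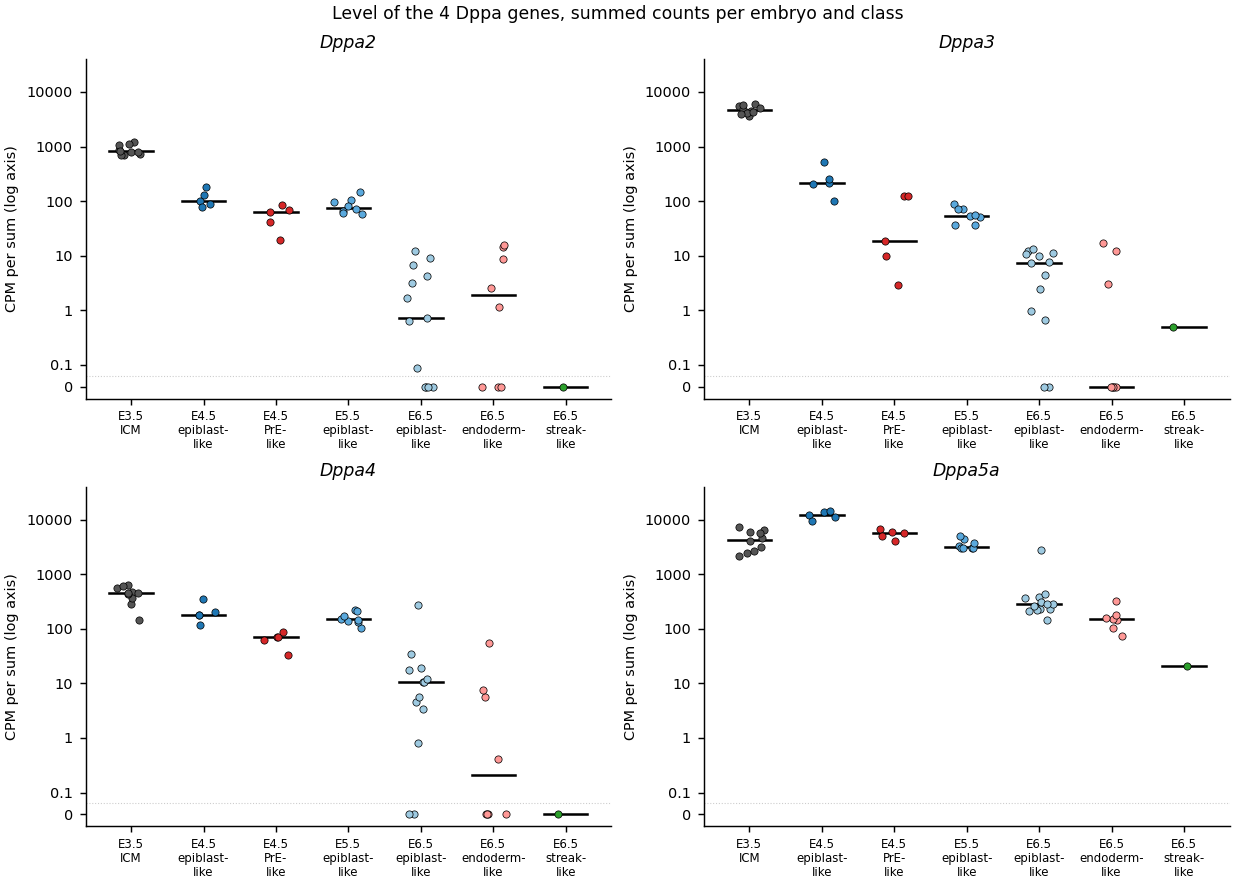
Counts-per-million (CPM, log axis, with 0 drawn below the dotted line) of the 4 genes in each sum of counts per embryo and class, where points are embryos and bars are medians. All 4 genes are lowest at E6.5, Dppa3 starts at a mean of 4783 in the ICM and is lower in each later epiblast-like class, and 1 E6.5 epiblast-like embryo lies at 2743 for Dppa5a.

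Dppa2 was at 883 ± 191 CPM (SD, n = 10) in the ICM, with a lowest embryo of 691, a median of 817 and a highest of 1236. In the 5 E4.5 embryos it was at 101.6, 131.2, 79.5, 184.4 and 87.9 CPM in epiblast-like cells and at 69.4, 41.6, 19.1, 85.03 and 64.5 in PrE-like cells. The ICM did not overlap either E4.5 class, whereas the 2 E4.5 classes and the E5.5 epiblast-like class (57.7 to 148.4, median 76.4, n = 8) overlapped in neighbouring pairs. Nearly all of the remaining signal was gone at E6.5: the 13 epiblast-like sums ran from 0 in 4 embryos over a median of 0.722 to 12.5, and the 8 endoderm-like sums from 0 in 3 embryos over a median of 1.88 to 15.9. No Dppa2 count was found among the 14750311 counts of the 23 streak-like cells, where 3 counts would be 0.203 CPM.

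Dppa4, the partner of Dppa2, started lower in CPM and was at a higher level than Dppa2 in the epiblast-like classes from E4.5 on, though not in the E6.5 endoderm-like class. It was at 440.4 ± 148.3 CPM (SD, n = 10) in the ICM, from 145.8 over a median of 451.5 to 631. In epiblast-like cells of the 5 E4.5 embryos it was at 206, 117.9, 176.3, 180.9 and 348, which overlapped the ICM. In the PrE-like cells of the same embryos it was at 62.98, 70.2, 33.05, 71.6 and 86.5, below every ICM and every E4.5 epiblast-like sum. The 8 E5.5 embryos held 103.6 to 224 CPM (median 149.4), a range that lay above all PrE-like sums. At E6.5 the epiblast-like sums had a median of 10.47 and a mean of 9.91 ± 10.2 (SD, n = 12) without embryo 9, the endoderm-like sums a median of 0.206 with 4 of 8 at 0, and the streak-like sum no count.

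Dppa3 had the steepest descent of the 4. The 10 ICM sums held 3646 to 5995 CPM (median 4662), and the lowest of them was above every sum of every later class. The 5 E4.5 embryos were at 210.4, 218, 249, 519.6 and 99.9 CPM in epiblast-like cells. Their PrE-like cells fell into 2 embryos at 126.6 and 123.2 (embryos 2 and 4) and 3 at 9.71, 18.5 and 2.95 (embryos 1, 3 and 5), a spread of 56.2 ± 62.98 (SD, n = 5). E5.5 epiblast-like sums at 36.2 to 90.1 (median 54.5) lay below all E4.5 epiblast-like sums. At E6.5 the 13 epiblast-like sums ran from 0 to 13.5 with a median of 7.39, and 5 of the 8 endoderm-like sums were at 0.

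Dppa5a alone of the 4 did not peak in the ICM. Its ICM sums ran from 2170.2 over a median of 4298 to 7409 CPM, and the plates separated them: 2170.2 to 4051 on P8 (5 embryos), 5655 to 7409 on P9 (4 embryos) and 4545 in the embryo of the other plate set. E4.5 epiblast-like cells held 12100.1, 13672, 9437, 14224.5 and 10909.6 CPM, all above every sum of the other classes. PrE-like cells of the same embryos held 4025, 6818, 5025, 5796 and 5637. The PrE-like, ICM and E5.5 epiblast-like classes (2989 to 4999, median 3144) overlapped in this order of their means. At E6.5 the epiblast-like sums without embryo 9 were at 278 ± 81.6 CPM (SD, n = 12), the endoderm-like sums at 159.7 ± 71.5 (SD, n = 8) and the streak-like sum at 20.9.

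The first comparison asked how the ICM changed on its way to the E4.5 epiblast. Dppa2 and Dppa3 fell and Dppa5a rose, so that 3 of the 4 genes passed an adjusted p of 0.05 (quasi-likelihood test of edgeR, adjusted by Benjamini-Hochberg over 17161 genes, of which 20.1% passed). Dppa3 was 18.4-fold lower in the epiblast-like cells (log2 fold change -4.20 ± 0.93 SE, adjusted p = 7.6e-04) and Dppa2 7.55-fold lower (-2.92 ± 0.87, adjusted p = 0.013). Dppa5a was 2.72-fold higher (log2 fold change 1.44 ± 0.38, adjusted p = 0.0051). The change of Dppa4, -1.10 ± 0.95, was smaller than its error allowed to call (adjusted p = 0.48). The rise of Dppa5a depended on the E3.5 plate: against the 5 embryos of P8 its log2 fold change was 1.96 (edgeR adjusted p = 0.0021), and against the 4 embryos of P9 it was 0.93 (adjusted p = 0.24), where Dppa2, at -2.74, also missed the threshold (adjusted p = 0.081). With only sums of at least 5 cells, which removes all P8 embryos, Dppa2 and Dppa5a missed it too (edgeR adjusted p = 0.055 and 0.20).

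Toward the primitive endoderm, the layer that forms yolk sac endoderm, Dppa2 and Dppa3 fell further. Both passed, 2 of 4 genes beside 19.2% of all genes tested with edgeR, 5.69% downward and 13.6% upward. Dppa3 was 85.1-fold lower in PrE-like cells than in the ICM (log2 fold change -6.41 ± 1.05 SE, adjusted p = 6.8e-06) and Dppa2 15.8-fold lower (-3.98 ± 0.93, adjusted p = 0.0017). Dppa4 missed the threshold at -2.76 ± 1.05 (adjusted p = 0.054) and passed it in 7 of 18 other settings of the analysis. Dppa5a was at 0.30 ± 0.39 (adjusted p = 0.70), and its sign turned to -0.22 against the P9 embryos alone. The plate set P11.P6.P10 held 1 E3.5 and 2 E5.5 embryos: on it Dppa3 was at 5527 CPM against 71.7 and 36.2, Dppa2 at 691 against 106 and 81.8, Dppa4 at 479 against 151.6 and 136.8, and Dppa5a at 4545 against 3028 and 3035. The direction within this plate set was therefore downward from E3.5 to E5.5 for each gene, with no test, since E3.5 is 1 embryo there.

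Within the E4.5 embryo both lineages could be set side by side. All 4 genes were higher in the epiblast-like than in the PrE-like cells of each of the 5 embryos, by 1.36- to 4.17-fold for Dppa2, 1.72- to 33.9-fold for Dppa3, 1.68- to 5.34-fold for Dppa4 and 1.88- to 3.01-fold for Dppa5a. In the fit over all classes, which ignores that the sums are pairs, the log2 fold changes PrE minus epiblast were -1.06 ± 0.88 SE, -2.21 ± 0.89, -1.67 ± 1.07 and -1.14 ± 0.47, and 0 of the 4 passed (adjusted p from 0.12 to 0.54 in edgeR; 2 had an unadjusted p under 0.05, and DESeq2 also passed 0) while 5.52% of all genes did, 2.74% lower and 2.78% higher in the PrE. With the embryo as a replicate block all 4 passed, at -1.17 (edgeR adjusted p = 0.036), -3.25 (adjusted p = 0.0069), -1.66 (adjusted p = 0.0040) and -1.16 (adjusted p = 4.0e-04). The number of all genes called rose from 947 to 1732 in that fit, which also held only the 2 E4.5 classes. Without the block, a fit of only these 2 classes called 1570 genes, and 2 of the 4 members passed in it. The number of genes tested in these 2 fits is not given here. The counts of members passing in them therefore stand beside no share of all genes. The pattern of being higher in each of the 5 embryos was counted for the members alone and has no background either. The plot of both lineages by embryo shows that the lines of Dppa5a are the most nearly parallel and that the steepness of Dppa3 differs most between embryos.

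**Figure D2:**
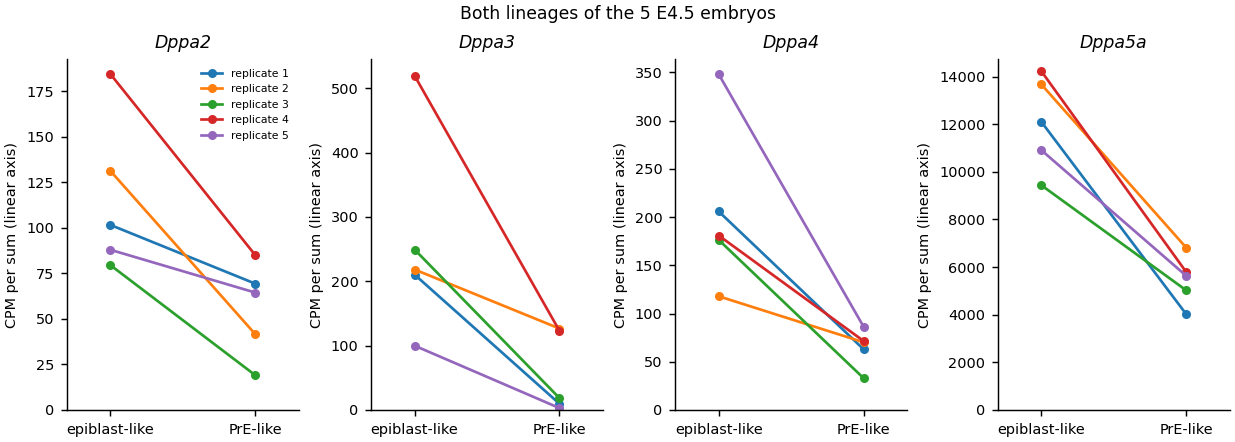
Counts-per-million (CPM, linear axes from 0) in the epiblast-like and PrE-like cells of the 5 E4.5 embryos, each line joining the 2 sums of 1 embryo. Every line descends toward the PrE-like class for each gene, from 14224.5 to 5796 CPM of Dppa5a in embryo 4, for example.

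Between the E4.5 and the E5.5 epiblast, the step over implantation, 1 of the 4 genes passed beside 5.31% of all genes, 3.09% downward and 2.22% upward. Dppa5a fell 3.39-fold (log2 fold change -1.76 ± 0.41 SE, edgeR adjusted p = 0.0053), and passed in all 17 other settings, with -1.89 and -1.57 (adjusted p = 0.0017 and 0.020) when E5.5 held only the larger or only the smaller of its clusters. Dppa3 was 4.44-fold lower without passing (-2.15 ± 0.76, adjusted p = 0.080), although its ranges in the 2 classes did not overlap. It passed in 3 of the 17 settings. Dppa2 and Dppa4 differed by -0.44 ± 0.77 and -0.37 ± 0.93 (adjusted p = 0.84 and 0.91), and the median of all genes moved by 0.21 in this comparison.

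From the E5.5 to the E6.5 epiblast all 4 genes fell, where 13.5% of all genes passed, 7.03% downward and 6.44% upward. Dppa2 was 28.02-fold lower (log2 fold change -4.81 ± 0.67 SE, edgeR adjusted p = 1.4e-06), Dppa3 9.26-fold (-3.21 ± 0.62, adjusted p = 2.9e-04) and Dppa5a 7.60-fold (-2.93 ± 0.33, adjusted p = 9.7e-09). Dppa4 was 5.37-fold lower (-2.43 ± 0.74, adjusted p = 0.023), and the size of its fall depended on embryo 9. Without that embryo the log2 fold change of Dppa4 was -3.98 (edgeR adjusted p = 3.8e-05) and that of Dppa5a -3.67 (adjusted p = 6.5e-20), while Dppa2 and Dppa3 were at -5.04 and -3.10. The plate name P1 was carried by 1 E5.5 and 3 E6.5 embryos, with 3783 against 227 to 381 CPM of Dppa5a, 70.98 against 0 to 3.12 of Dppa2, 72.8 against 7.39 to 11.2 of Dppa3 and 171.6 against 0 to 5.69 of Dppa4, and whether it was the same plate is not given. With E6.5 limited to plates P1 to P3, which include embryo 9, Dppa4 missed the threshold (-2.03, adjusted p = 0.076). Under the cluster naming rule as first written, which left many epiblast cells out, Dppa3 missed it (-2.40, edgeR adjusted p = 0.21). All 4 genes also passed with only the larger E5.5 cluster and with only the smaller.

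**Figure D3:**
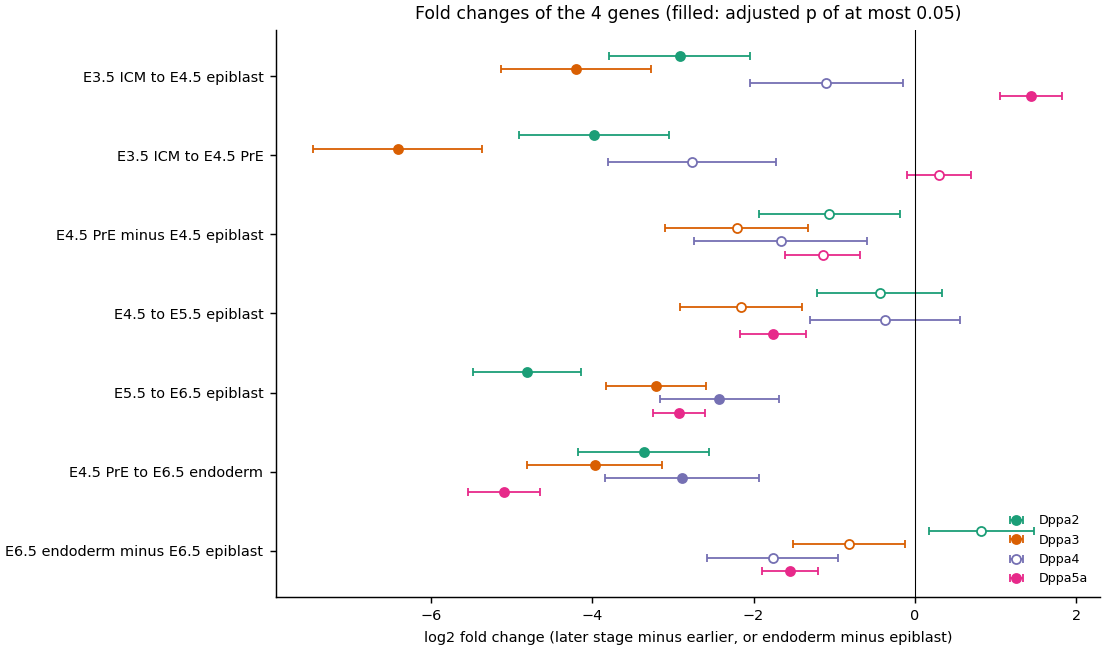
Log2 fold changes (x axis) of the 4 genes in 7 comparisons, with standard errors as bars and filled circles for an adjusted p of at most 0.05 in the edgeR fit over all classes. The only filled circle to the right of 0 is Dppa5a from the ICM to the E4.5 epiblast, at 1.44.

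In the endoderm, from E4.5 PrE-like to E6.5 endoderm-like cells, all 4 genes fell as well, beside 12.1% of all genes passing, 7.59% downward and 4.5% upward. Dppa5a was 34.2-fold lower (log2 fold change -5.09 ± 0.45 SE, edgeR adjusted p = 9.4e-12), Dppa3 15.7-fold (-3.97 ± 0.84, adjusted p = 0.0010) and Dppa2 10.3-fold (-3.36 ± 0.81, adjusted p = 0.0043). Dppa4 was 7.40-fold lower (-2.89 ± 0.95, adjusted p = 0.039). Its call was lost without E4.5 embryo 1, 2, 4 or 5 (adjusted p from 0.056 to 0.065) and strengthened without E6.5 embryo 8 (-4.97, adjusted p = 6.4e-04), and it held in 10 of 19 other settings. The fall of Dppa2 did not pass when the cluster led by anterior visceral endoderm genes was left out (-2.28, adjusted p = 0.15). In a fit of only these 2 classes, Dppa5a alone passed. The fall of Dppa5a thus ended far below its E4.5 level in both lineages, since the E6.5 endoderm-like sums at 73.6 to 316 CPM and the epiblast-like sums lay below all E4.5 and E5.5 sums.

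At E6.5 the lineages differed past the threshold in 1 gene of the 4, beside 19.2% of all genes, 11.7% lower and 7.49% higher in the endoderm. Dppa5a was 2.93-fold lower in endoderm-like than in epiblast-like cells (log2 fold change -1.55 ± 0.35 SE, edgeR adjusted p = 0.0019), and in 7 of the 8 embryos with both classes the epiblast-like sum was higher. The difference shrank to -0.80 (edgeR adjusted p = 0.0059) without embryo 9 and to -0.74 (edgeR adjusted p = 0.032) with the embryo as a block. The block fit held only the 8 embryos with both classes, so it left out embryo 9 too and is no separate check. Under the naming rule as first written the difference was not called (-0.28, edgeR adjusted p = 0.56). Dppa2 was at 0.82 ± 0.65 and Dppa3 at -0.82 ± 0.70 (adjusted p = 0.40 and 0.44). Dppa4 was at -1.76 ± 0.81 (adjusted p = 0.11) and at -3.89 (adjusted p = 0.0028) without embryo 8, whose endoderm-like Dppa4 counts came almost all from 1 cell. That fit kept embryo 9, which was high in Dppa4. Without embryo 9 the epiblast-like mean of Dppa4 was 9.91 in place of 29.7 CPM, beside 8.66 in the endoderm-like sums with embryo 8 included. The Dppa4 difference at E6.5 thus depended on these 2 embryos, and no lineage difference of Dppa4 is read from it. The median of all genes stood at -0.25 in this comparison. Whether the lineage difference at E6.5 was unlike that at E4.5 was tested directly, and none of the 4 genes passed (edgeR adjusted p from 0.39 to 1, where 496 of all genes passed; 0 had an unadjusted p under 0.05, and no other tool was run on this contrast).

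**Figure D4:**
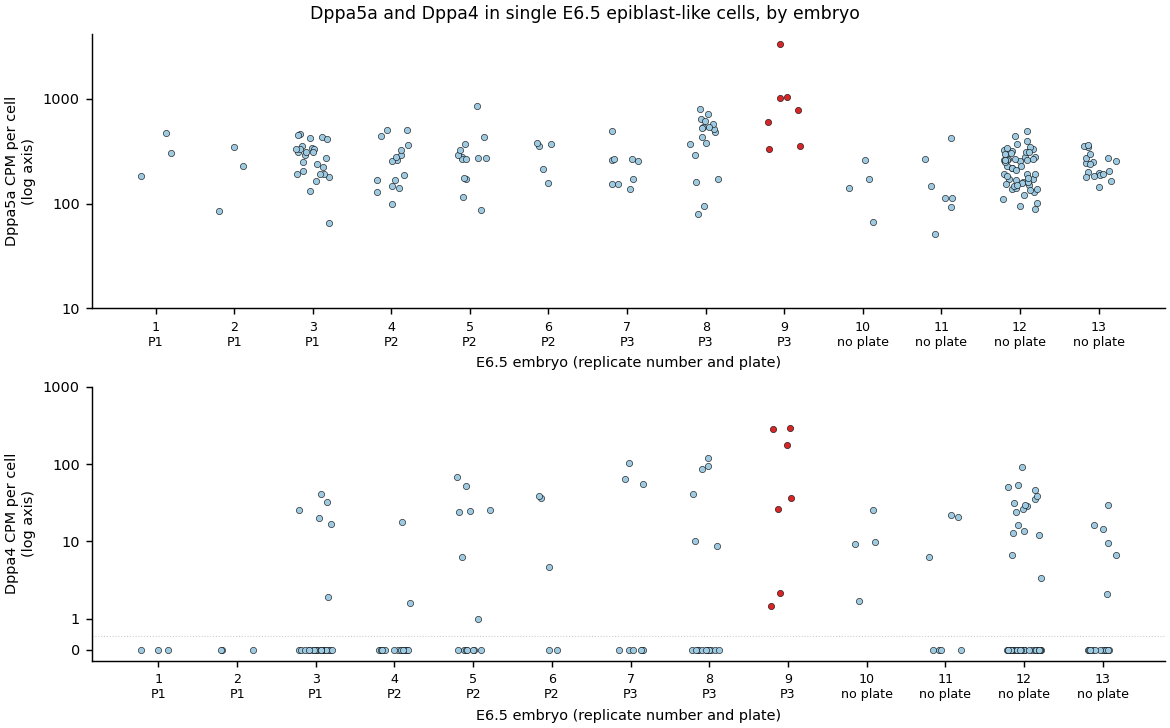
Counts-per-million (CPM, log axes) of Dppa5a and Dppa4 in single E6.5 epiblast-like cells, arranged by embryo and plate, with the 7 cells of embryo 9 in red and Dppa4 cells without a count drawn at 0. The cells of embryo 9 reach 3336 CPM for Dppa5a, and no other embryo's cell exceeds 849.

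The streak-like cells, the first to leave the epiblast for mesoderm, came from embryo 11 alone, so their sum was assumed to vary like the others. In the edgeR fit 0 of the 4 genes passed, as did 0.0641% of all genes; 3 had an unadjusted p under 0.05, and DESeq2 passed 2 of them, Dppa4 and Dppa5a. Dppa5a, at -4.48 ± 1.10 SE (adjusted p = 0.079), passed without embryo 9 (-3.73, edgeR adjusted p = 0.0015). Within embryo 11 itself, counts per total showed a Dppa5a ratio of 8.71 between 7 epiblast-like and 23 streak-like cells, from 2591 and 342 counts. Dppa4, with 51 counts in the epiblast-like and 0 in the streak-like cells of the embryo, was at least 19.5-fold lower in the latter when set at 3 counts over the sum. Dppa2 had 1 count in the epiblast-like cells of embryo 11, too few for a ratio.

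The share of cells with a count was compared after each cell had been thinned at random to 60000 counts, since depth alone moves it. Dppa5a was found in 100% of the cells of each class but the streak-like class, where 18 of 23 cells held it (78.3%) and all 23 held it before thinning. Dppa2 went from 100% of ICM cells to 96% ± 8.94 (SD, n = 5) of E4.5 epiblast-like and 70.1% ± 20.0 of PrE-like cells, then to 84.2% ± 5.48 (n = 8) at E5.5, and at E6.5 to 6.25% ± 15.6 (n = 13) of epiblast-like and 11.7% ± 12.8 (n = 8) of endoderm-like cells. Embryo 9, at 57.1% (4 of 7 cells), carried most of the epiblast-like mean, which was 2.01% ± 3.11 (n = 12) without it. Dppa3 went from 100% to 93.8% ± 8.52 and 60.4% ± 34.97, then to 67.3% ± 11.4, and last to 17.6% ± 14.8 and 12.5% ± 17.3 of the same classes. Dppa4 ran from 96.7% ± 10.54 to 100% and 82.3% ± 4.78, then to 92.8% ± 6.35, and last to 26.7% ± 24.9 and 7.41% ± 10.6. Without thinning the E6.5 epiblast-like shares were 17.2%, 25.1% and 39.9% for Dppa2, Dppa3 and Dppa4.

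Exact two-sided permutation tests over embryos, adjusted over the 28 tests run, passed 12 of these steps. The tests of Dppa5a compared 100% with 100% and could not pass. From the E5.5 to the E6.5 epiblast-like class the share changed by -77.9 percentage points for Dppa2, -49.6 for Dppa3 and -66.1 for Dppa4, each without overlap between the 8 and 13 embryos (exact p = 4.9e-06, the smallest the design allows; adjusted p = 4.6e-05). No share was computed for genes other than the members, so these counts have no background over all genes. From PrE-like to E6.5 endoderm-like cells the shares of these 3 genes changed by -58.5, -47.9 and -74.9 points (exact adjusted p = 0.0036, 0.019 and 0.0036). From the ICM to the PrE-like class they changed by -29.9, -39.6 and -14.4 points (exact adjusted p = 0.0023, 0.013 and 0.033). Between the E4.5 and E5.5 epiblast-like classes Dppa2 and Dppa3 changed by -11.8 and -26.5 points (exact adjusted p = 0.033 and 0.0093). Dppa4 changed by -7.20 points there without passing (exact adjusted p = 0.073). Between the E4.5 lineages the share of Dppa4 was 17.7 points lower in PrE-like cells (difference -17.7, exact p = 0.0079, the smallest 5 against 5 embryos allow; adjusted p = 0.022), that of Dppa2 differed by -25.9 (exact adjusted p = 0.051) and that of Dppa3 by -33.4 (exact adjusted p = 0.20). This test ignores that both lineages came from the same embryos. Dppa2 and Dppa4 were each found in a larger share of the epiblast-like cells in 5 of 5 embryos and Dppa3 in 4 of 5, and an exact permutation test over the 5 pairs gave p = 0.0625 for Dppa2 and Dppa4, the smallest it allows, and 0.125 for Dppa3. The Dppa4 call was lost when cells were thinned to 200000 counts or not thinned (-6.73 points in both; exact adjusted p = 0.26 and 0.29), with single wells only (exact adjusted p = 0.10) and without any 1 of the 5 embryos (exact adjusted p = 0.067 to 0.075). When a cell needed 3 counts, Dppa2, Dppa3 and Dppa4 all passed (exact adjusted p = 0.044, 0.034 and 0.044). Without E6.5 embryo 9 the share of Dppa2 was 9.69 points higher in E6.5 endoderm-like than in epiblast-like cells (exact adjusted p = 0.042), against 5.45 points with it (exact adjusted p = 0.66), while the exact permutation test over the 8 pairs of both lineages gave p = 0.125. In none of the 23 streak-like cells was Dppa2 or Dppa4 found. All 23 came from 1 embryo, so this sets no limit on the share in other embryos.

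**Figure D5:**
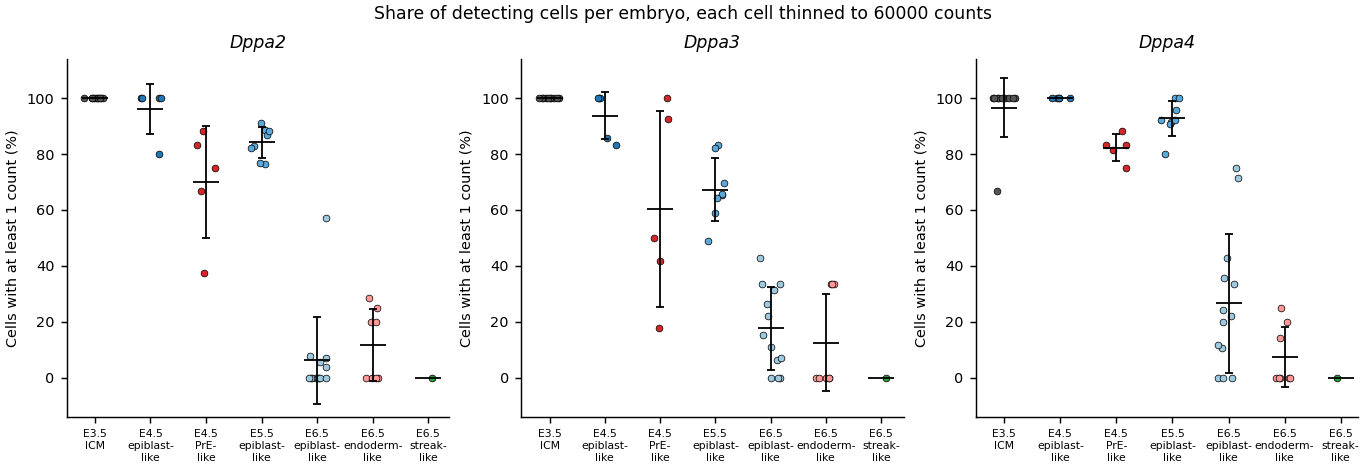
Percentage of cells with at least 1 count of Dppa2, Dppa3 and Dppa4 after thinning each cell to 60000 counts, with a point per embryo and the mean ± SD over embryos of each class. Embryos of the E5.5 and of the E6.5 epiblast-like class do not overlap for any of the 3 genes, whose means differ by -77.9, -49.6 and -66.1 percentage points.

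Dppa2 and Dppa4, whose proteins act together, were also read cell by cell. Both were counted in 99 of 99 ICM cells, 29 of 29 E4.5 epiblast-like cells, 62 of 76 PrE-like cells and 229 of 260 E5.5 epiblast-like cells. At E6.5 they were found together in 7.57% of epiblast-like cells (14 cells), while 27.03% held only Dppa4, 4.86% only Dppa2 and 60.5% neither. Of the 14 cells 4 were of embryo 9, and without it the share with both was 5.62%. In E6.5 endoderm-like cells both were counted in 3 of 42, Dppa2 alone in 8 and Dppa4 alone in 3. All 4 genes were counted together in 99 of 99 ICM, 28 of 29 E4.5 epiblast-like, 50 of 76 PrE-like, 176 of 260 E5.5 epiblast-like and 1.62% of E6.5 epiblast-like cells (3 cells), and in no E6.5 endoderm-like or streak-like cell. These counts were taken without thinning and follow depth as well as expression.

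Dppa3 at E6.5 was set beside genes of the germ cell precursors, which appear in the embryo about then. Of the epiblast-like cells 27.6% (51 cells) held a Dppa3 count, the highest at 122.96 CPM. Among those 51, Prdm1, a repressor of somatic genes in germ cell precursors, was counted in 4, Tfap2c in 3, Nanos3 in 4, Prdm14 in 1, Ifitm3 in 34 and Kit in 10. Among the remaining epiblast-like cells, which had no Dppa3 count, Prdm1 was counted in 12, Tfap2c in 16, Nanos3 in 4, Prdm14 in 0, Ifitm3 in 80 and Kit in 18. The cells share embryos and differ in depth, and no test was run on these counts. No cell was named a germ cell.

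Within the ICM the cells of an embryo differed from each other, and the 4 genes did not vary as 1 group. Single ICM cells ranged from 1774 to 10218 CPM for Dppa3, 2111 to 11567 for Dppa5a, 149 to 2094 for Dppa2 and 58.2 to 969 for Dppa4, with coefficients of variation of 0.375, 0.366, 0.473 and 0.441. Over the 99 cells, each taken relative to its embryo, Spearman's rho was 0.49 between Dppa3 and Dppa5a, -0.31 between Dppa2 and Dppa5a, and 0.07 between Dppa2 and Dppa4. Cells with more Dppa3 or Dppa5a had less of the 18 endoderm markers (rho = -0.55 and -0.50) and fewer detected genes (-0.51 and -0.49), and the endoderm markers themselves rose with detected genes (0.34). Against the epiblast markers Dppa3 and Dppa5a stood at -0.05 and 0.17. These cells share embryos, plates and the limits of depth, so the values describe them and carry no test, and the part of detected genes in them was not tested.

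The genes around the members had patterns of their own. On chromosome 16, Morc1, a gene that represses transposons in the male germ line and starts 127.3 kb from Dppa2, was at 56.4 CPM in the ICM, 475 in E4.5 epiblast-like cells, 7.10 in PrE-like and 14.2 in E5.5 epiblast-like cells. Unlike Dppa2 it rose from the ICM to the E4.5 epiblast (log2 fold change 3.07, edgeR adjusted p = 0.019), though it is also among the 10 leading genes of the E4.5 epiblast-like cluster. On chromosome 6, Nanog, the homeobox factor of pluripotency 81.1 kb from Dppa3, was at 302 CPM in the ICM and 113.2 in E4.5 epiblast-like cells, and from E5.5 to E6.5, it rose from 10.6 to 83.1 CPM (log2 fold change 2.97, edgeR adjusted p = 0.0045). Gdf3, a TGF-beta ligand 16.3 kb from Dppa3 and a marker used to name the epiblast, had 245 CPM in the ICM, 303 in E4.5 epiblast-like, 17.9 in PrE-like, 130.996 in E5.5 epiblast-like and 13.5 in E6.5 epiblast-like cells. Beside Dppa5a on chromosome 9, Ooep, a maternal-effect gene of the same KH-domain group 10.55 kb away, rose from 24.1 CPM in the ICM to 253 in E4.5 epiblast-like cells (log2 fold change 3.38, edgeR adjusted p = 0.0013) and fell from 47.7 at E5.5 to 11.04 at E6.5 (-2.09, edgeR adjusted p = 0.025). Eef1a1, a translation factor 120.97 kb away, was at 2253 to 4830 CPM in all classes.

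Other genes named within 150 kb were low. Rimklb near Dppa3 was at 1.46 to 48.6 CPM and passed in 2 comparisons, Mfap5 at most at 12.4, and Apobec1 under 1 throughout. Near Dppa5a, Ddx43, a helicase of the germ line, was at 6.92 CPM in the ICM and 6.38 in E5.5 epiblast-like cells and fell to 0.180 at E6.5 (log2 fold change -4.90, edgeR adjusted p = 0.0037), with the overlapping antisense row 4930542C12Rik at 2.05 or less. Mto1 lay between 13.9 and 32.9 CPM without a call, Gm17324 at 5.85 or less, and Gsta1, Gsta2 and Gm10639 at 1.63 or less. Gm7204 beside Dppa4 was at 12.8 or less without a call. Omt2a, Omt2b, Gm8074 and Gm16556 had no counts in the sums and were not tested.

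The genes whose levels over the 50 sums were most like those of a member differed between members. For Dppa2 they were Gm9788 (Pearson's r = 0.918), Gm13154 (0.902) and Dppa4 (0.872), and for Dppa4 they were Gdf3 (0.908), Dppa2 (0.872) and Gm13154 (0.857). Gm9788 shares transcript stretches with Dppa2, which limits what its likeness can show. For Dppa3 they were Gm9788 (0.891), Pecam1 (0.878), an adhesion molecule, and Calcoco2 (0.876), an autophagy receptor found in the same search as the Dppa genes. For Dppa5a they were Zfp600 (0.918), 1700029P11Rik (0.914) and Fam25c (0.907). Among the members, r was 0.853 between Dppa4 and Dppa5a, 0.826 between Dppa2 and Dppa5a, and lowest between Dppa3 and Dppa4 at 0.655. The sums share stages, embryos and plates, so these values describe likeness over them and carry no test.

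Genes tied to the members by name or function were counted from fixed lists. The 6 genes that came from the same search, Dppa1, Calcoco2 and Pramel4 to Pramel7, include several with next to no count after the ICM. To the E4.5 epiblast 5 of 6 fell and to the PrE 6 of 6, where 6.19% and 5.69% of all genes passed downward. Genes with next to no count in later classes entered the fit through the ICM alone and could only fall, so nothing about the list is read from these counts, and no median is given. Dppa1 is among the 6 that fell to the PrE, on the counts of 1 ICM cell. Calcoco2 was at 6848 CPM in the ICM, above Dppa3 before division by length, and at 146.5 in E4.5 epiblast-like cells. Pramel6, Pramel7 and Pramel5, which belong to a family of leucine-rich repeat proteins, went from 252, 117.4 and 53.4 CPM in the ICM to no count in E4.5 epiblast-like cells. From E5.5 to E6.5 Calcoco2 passed downward, from 2.14 to 0.120 CPM, and Pramel5 upward, from no count to 0.0621 CPM.

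Of 15 early embryo and germline genes known to need Dppa2 and Dppa4, 14 had a row and 5 had counts enough for a test. Syce1, a part of the synaptonemal complex, rose from 0.477 CPM in the ICM to 15.4 in E4.5 epiblast-like and 11.1 in PrE-like cells (log2 fold changes 4.93 and 4.45, edgeR adjusted p = 0.011 and 0.020). Mael, a piRNA pathway gene, fell from 6.30 CPM at E5.5 to 0.226 at E6.5 in epiblast-like cells (-4.62, edgeR adjusted p = 0.023). Tcstv3 and Tdpoz1, genes of the cleavage stages, reached 1.09 and 0.799 CPM in the ICM and had no counts in the sums of any later class. Of the 5, 1 rose and 0 fell from the ICM to the E4.5 epiblast, where 13.9% and 6.19% of all genes did, and 1 fell from E5.5 to E6.5, where 7.03% of all genes did. Tcstv3 and Tdpoz1 could only fall at the first of these steps and could not change at the second. Nothing about the list is therefore read from these counts.

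The 10 genes of DNA methylation that Dppa3 acts on or beside included several that rose at the step where Dppa3 fell. From the ICM to the E4.5 epiblast 4 of 10 rose (Dnmt1, Dnmt3a, Dnmt3b, Dnmt3l) and none fell, with a median of 1.18 against 0 over all genes, while 13.9% of all genes passed upward. Dnmt3l, the cofactor of the de novo enzymes, went from 21.4 to 616 CPM (log2 fold change 4.83, edgeR adjusted p = 1.7e-04) and Dnmt3a from 45.2 to 418 (3.21, adjusted p = 4.4e-08). Dnmt3b, which was also a marker used to name the epiblast, went from 34.1 to 430 and on to 2512 CPM at E5.5. Toward the PrE 3 rose and 3 fell, beside 13.6% and 5.69% of all genes. Among those that fell was Trim28, a corepressor that guards imprints, at -1.09 (edgeR adjusted p = 0.015). From E5.5 to E6.5 only Dnmt3a fell, at -1.53 (edgeR adjusted p = 0.0017), where 7.03% of all genes passed downward. The median of the list was -0.15.

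The 7 germ cell precursor genes showed 2 lower and 1 higher from the ICM to the E4.5 epiblast (median 0.32), beside 6.19% and 13.9% of all genes, and 0 lower and 1 higher from E5.5 to E6.5 (median 0.24), beside 7.03% and 6.44%. The gene higher from E5.5 to E6.5 was Prdm14, at 0.0066 and 0.545 CPM and counted in 1 E6.5 epiblast-like cell. Nothing is read from that call. Tfap2c, also a trophectoderm marker, was at 119.6 CPM in the ICM and had no count in either E4.5 class. From the ICM Prdm14 went from 36.5 to 0.448 CPM in E4.5 epiblast-like cells. Ifitm3 rose from 6.42 to 79.7 CPM there (log2 fold change 3.61, edgeR adjusted p = 0.0063), and Sox17, a marker used to name the endoderm, was highest in PrE-like cells at 126.95 CPM. Among 5 maternal genes related to Dppa5a by their KH domains, 4 had a row. From the ICM to the E4.5 epiblast Khdc1a fell from 96.8 to 6.79 CPM (log2 fold change -3.83, edgeR adjusted p = 0.0059), and Ooep rose as Dppa5a did. Khdc1b and Khdc1c were also called lower, beside 6.19% of all genes lower and 13.9% higher. At 1.95 and 2.48 CPM in the ICM and without a count in the E4.5 sums, these 2 genes could only fall. Nothing is read from their calls.

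The 11 genes of naive pluripotency, the state of the early epiblast, were called lower at several steps. From the ICM to the E4.5 epiblast 3 of 11 fell (Klf5, Fbxo15 and Prdm14, median -1.95, with 6.19% of all genes passing downward). Toward the PrE 7 of 11 fell, where 5.69% of all genes passed downward. From the E4.5 to the E5.5 epiblast 9 of 11 fell (median -5.02, against 0.21 over all genes, with 3.09% of genes passing downward), the step at which Dppa2 and Dppa4 moved by -0.44 and -0.37. Klf5 and Tfcp2l1, both transcription factors of that state, went from 117.1 and 166.4 CPM to 3.58 and 2.35 (log2 fold changes -5.02 and -6.12, edgeR adjusted p = 9.5e-06 and 2.8e-05), and Fbxo15 from 63.8 to 0.927. Zfp42 (Rex1) was at 113.2 and 35.5 CPM without a call there and fell from E5.5 to E6.5, to 3.52 CPM (-3.29, edgeR adjusted p = 1.6e-04). From E5.5 to E6.5, where all 4 members fell, 2 of the 11 fell, 3 rose and the median was -0.39. Among the 3 was Prdm14, counted in 1 E6.5 epiblast-like cell, and nothing is read from its call. Of all genes 7.03% passed downward and 6.44% upward at this step. The difference between this list and the members was not tested.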

How the data were processed

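The authors prepared RNA by G&T-seq with Smart-seq2, trimmed reads with Trim Galore (0.4.3 in the submitters' processing notes), aligned them to GRCm38 with HISAT2 (2.0.5), kept primary alignments of high mapping quality, counted reads per gene in SeqMonk, and removed cells with few genes or much mitochondrial RNA, trophoblast cells and wells of 3 or more cells. The file deposited by the authors holds raw read counts for each gene in each cell, not normalised and without molecular identifiers. Each SD is over embryos and each SE comes from the fit to the sums of embryos, so both include differences between embryos.

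The 4 members and all lists were chosen with earlier results of these data known. Clusters came from steps modelled on SC3 (k = 8 over all cells, k = 5 at E6.5, 10705 genes) with the members held out, and clusters were named from markers. As first written the naming rule left many epiblast cells unnamed, so clusters were named by the larger mean marker level instead. Counts were summed per embryo and class (at least 3 cells; 705 cells, 50 sums) and tested with edgeR 4.0.16 (R 4.3.3; TMM, filterByExpr, quasi-likelihood test, Benjamini-Hochberg over 17161 genes) in 1 fit of 7 classes. Of the 260 E5.5 epiblast-like cells 258 and of the 42 E6.5 endoderm-like cells 35 entered a sum. CPM are per TMM-scaled library and relative to the RNA of the same cells. Shares used scipy 1.17.1 (exact two-sided permutation tests over embryos). Steps were tested on simulated data. Embryos were told apart by the plate and number in their labels, which gives 37, more than the study counts; the labels leave unclear whether E6.5 embryos without a plate name repeat those of plate P1, in which case n = 13 is too high.

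The text names the members, genes starting within 150 kb, the 3 most alike by Pearson's r, and up to 4 genes of the largest level per list. Other genes named were chosen after their values were seen. The E4.5 and E6.5 lineages come from the same embryos, which pairs them. Deviations of paired sums correlated at r = 0.0105 to 0.0949 (E4.5) and 0.0341 to 0.153 (E6.5). Alternatives tried included DESeq2 1.42.0, another normalization, other filters, minimum cell numbers, clusterings and thinnings, a replicate block, and fits without embryos, plates or wells. Doublet wells were kept, and no doublet caller was run. No sequence of a member is printed.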

Additional observations from a re-analysis of the deposited data

Results flagged for a closer look

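A search of 32 groups of 4 to 10 embryos for a value far from the rest (Dixon's test at 95%, which chance meets in about 1 of 20 groups) found 5. In E6.5 endoderm-like sums embryo 8 was highest for Dppa4, at 55.6 CPM against 7.62 in the next embryo, and for Dppa5a, at 316 CPM against 177.5. Of its 7 cells 1 held 256 of the 258 Dppa4 counts (339.6 CPM), together with 37 Dppa2 counts and 405 CPM of Dppa5a, while another cell without that Dppa4 level held 451 CPM of Dppa5a. The E6.5 epiblast-like group, with 13 embryos, was outside the search, though embryo 9 stands apart in it for Dppa5a and Dppa4.

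The other 3 were shares of cells after thinning. Dppa2 was found in 80% of the E4.5 epiblast-like cells of embryo 3 (4 of 5 cells) and in 100% in each of the other 4 embryos. Dppa4 was found in 66.7% of the ICM cells of E3.5 embryo 2 (2 of 3 cells), against 100% in the other 9. In both groups the other embryos are tied at 100%, so that any embryo lacking the gene in 1 cell would have been found and the rate of 1 in 20 does not apply. At E5.5 Dppa4 was found in 80% of the cells of embryo 7 (36 of 45), where the next embryo had 90.7%.

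The 7 endoderm-like wells at E5.5, from 3 embryos, entered no comparison but held counts of all 4 genes. Over these wells together Dppa5a was at 878 CPM, Dppa2 at 80.6, Dppa3 at 55.2 and Dppa4 at 9.49, where 3 counts are 0.370 CPM. Dppa5a was counted in all 7 wells, from 454 to 1416 CPM, below the median of 3143 CPM over E5.5 epiblast-like cells. Dppa2 was counted in 4 wells and reached 337 CPM, Dppa3 in 2 wells with 163.9 and 243 CPM, and Dppa4 in 3 wells with at most 110.8 CPM, against epiblast-like medians of 69.3, 43.4 and 134.7. Of the 7 wells 5 were picked as visceral endoderm, all from embryo 7.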

How the results depend on the processing

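Results were recomputed under the alternatives named with the processing, of which the first naming rule, the plate splits, and the fits without the cluster of anterior visceral endoderm genes or without E6.5 embryo 8 or 9, with 1 E5.5 cluster, and with the replicate block for shares were added after the data were seen. Of 535 recomputed log2 fold changes of the members 484 kept direction and side of the threshold, 29 passed newly, 19 no longer passed and 3 turned in sign; the cause was not tested. The sign of Dppa5a from the ICM to the PrE turned to -0.16 with at least 5 cells a sum and to -0.22 with plate P9 only, and that of Dppa4 between E6.5 lineages to 0.31 under the first naming rule. The Dppa4 share from the ICM to the E4.5 epiblast turned to -8.52 points when a cell needed 3 counts. Members passing from the ICM to the E4.5 epiblast were 3, and 1 with at least 5 cells or with plate P9 only. Between E4.5 lineages they were 0, and 4 with the replicate block, 2 with only the classes compared and 1 under the first naming rule. From the E4.5 to the E5.5 epiblast they were 1, and 2 with at least 5 cells, with only the classes compared or under the first naming rule. From the PrE to the E6.5 endoderm they were 4, and 1 with only the classes compared. Between E6.5 lineages they were 1, and 2 with at least 1 or at least 5 cells, without the cluster of anterior visceral endoderm genes, or without embryo 8; the block kept 1 and left Dppa2 untested. In the streak, a class of 1 embryo, no call of a member is read. Counts of all genes moved most between E4.5 lineages (947; 291 with Ward clustering, 424 to 522 without an E4.5 embryo, 1641 with DESeq2, 1732 with the block), from the ICM to E4.5 (3446 and 3302; 1544 and 1411 with plate P9, 1533 and 1776 with only the classes compared), from E4.5 to E5.5 (911; 2628 with only those classes, 585 without embryo 4), from E5.5 to E6.5 (2311; 269 under the first naming rule, 357 without plate names), in the endoderm over time (2075; 929 and 706), between E6.5 lineages (3296; 913 with the block, 1146 with only those classes) and in the streak (11; 1 to 23). Of 392 recomputed shares 27 no longer passed and 7 passed newly, and all 14 recounts of the 12 shares passing stayed within 1.5 times (11 with the replicate block, 14 without E6.5 embryo 9). Many E6.5 sums hold no count of Dppa2, Dppa3 or Dppa4, which bounds their levels only from above.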
